A study of Mus musculus with 6 samples.

Results

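The HOX genes are the 39 genes of the Hoxa, Hoxb, Hoxc and Hoxd clusters, and they were chosen by their mouse symbols (Hoxa, Hoxb, Hoxc or Hoxd followed by a number) from the 56884 gene identifiers of the deposited count table. Membership follows the symbol and uses no measured value. The 39 genes were 11 of Hoxa on chromosome 6, 10 of Hoxb on chromosome 11, 9 of Hoxc on chromosome 15 and 9 of Hoxd on chromosome 2. The table held bulk RNA-seq counts, 1 library per ectopic lesion, from 6 ectopic lesions of a mouse endometriosis model, of which 3 were control (WT) and 3 Dnmt3a KO.

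Control lesions grew from uterine tissue of Dnmt3a f/f donors, and KO lesions from Dnmt3a f/f:PR Cre/+ donors, in which Cre is made in cells that express the progesterone receptor. Both donor genotypes therefore carried the floxed Dnmt3a alleles, and the controls carried no Cre. Donors of both genotypes were 8-week-old females given estradiol, and recipients were wild-type C57BL/6J females of 8 weeks with estrogen pellets. Cells of the host, and donor cells without the progesterone receptor, kept an intact Dnmt3a gene in every lesion. The labels give a time of 4 weeks and an intraperitoneal injection of tissue fragments, whereas the methods of the study describe a fragment sutured to the mesenteric membrane and collection on day 21. The sources differ on this point.

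HOX genes encode homeodomain transcription factors. Within a cluster the genes are numbered by paralog group, and groups with low numbers act in anterior and those with high numbers in posterior parts of the embryo. In the female reproductive tract the posterior Hoxa genes mark successive segments, with Hoxa9 in the oviduct, Hoxa10 and Hoxa11 in the uterus and Hoxa13 in the cervix and vagina, and Hoxa10 and Hoxa11 are needed for implantation and decidualization. DNMT3A is a de novo DNA methyltransferase that adds methyl groups to CG dinucleotides, and HOX clusters are rich in CG. DNA methylation was not measured in these libraries.

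Dnmt3a, the targeted gene, was counted at 52.7, 43.9 and 51.7 CPM (counts relative to library size, scaled by edgeR's TMM factors) in control lesions 1, 2 and 3 and at 30.4, 33.5 and 36.2 CPM in KO lesions 1, 2 and 3. The groups did not overlap. The log2 fold change of KO against WT was -0.57 (SE 0.14, edgeR quasi-likelihood test, unadjusted p = 0.0058, adjusted p = 0.321), and the exact two-sided permutation p was 0.10, the smallest that 3 against 3 lesions allow. Library totals were 45370342 to 57239184 counts. Several libraries carried transcripts of other tissue. The summed level of 10 skeletal muscle genes was 29140 and 30580 CPM in control lesions 1 and 3 and 5.54 to 16.2 CPM in the other lesions, that of 6 pancreatic acinar genes was 5212 CPM in control lesion 3 and 7.23 to 16.2 CPM elsewhere, and that of 6 neutrophil genes was 9706 CPM in control lesion 2 and 30.3 to 472 CPM elsewhere. The 6 adipocyte genes summed to 4466 CPM in KO lesion 3 and to 663 to 2774 CPM elsewhere. Endometrial markers were present in every lesion: the summed level of 9 epithelial genes was 1576 to 2407 CPM in the controls and 1517 to 2916 CPM in KO lesions, although Foxa2 of the uterine glands was at 0 in KO lesion 3. The summed level of 7 intestinal epithelial genes was 1.04 to 4.31 CPM, and the intestinal factors Cdx1 and Cdx2 each had counts in 1 lesion.

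Of the 39 HOX genes, 37 had a count in at least 1 lesion, 32 had counts in all 6 lesions, and 25 reached a mean of 1 CPM or more, the level taken here as expressed. The expressed genes were 7 of 11 in Hoxa, 8 of 10 in Hoxb, 6 of 9 in Hoxc and 4 of 9 in Hoxd. By position, they were 3 of 8 anterior genes (groups 1 to 3), 12 of 15 central genes (groups 4 to 8) and 10 of 16 posterior genes (groups 9 to 13). The genes with the fewest counts lay at the ends of Hoxb, Hoxc and Hoxd. Hoxb1 and Hoxd12 had 0 counts in every library, which allows up to 0.0526 to 0.0675 CPM per library (3 counts). Hoxb13 and Hoxd1 were counted only in KO lesion 3, with 2 and 4 counts. Hoxc13 had 0 to 30 counts, Hoxd13 0 to 16 and Hoxd3 2 to 5. These limits cover counting error only.

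To compare genes with each other, CPM was divided by the length of the exon model in kilobases. On that scale the highest mean levels over the 6 lesions, both genotypes pooled, were those of Hoxb7 (11.9 CPM per kb), Hoxa10 (10.5), Hoxa11 (9.71), Hoxb8 (7.64), Hoxd8 (6.89), Hoxb6 (6.25), Hoxc10 (4.44), Hoxd10 (3.48), Hoxd9 (3.13) and Hoxc8 (2.71). Hoxc10 was at 6.82 CPM per kb in the controls and 2.05 in KO lesions, where it was below Hoxb4 (2.65), which is not among these 10. In the controls alone Hoxd10 was at rank 11 (2.36 CPM per kb), and Hoxc6, also not among these 10, was at rank 8 (3.27). Among the posterior Hoxa genes, the uterine pair Hoxa10 and Hoxa11 stood far above the oviduct gene Hoxa9 (0.953 CPM per kb) and the cervical and vaginal gene Hoxa13 (0.646 CPM per kb), in both genotypes. In control lesions Hoxa10 was at 8.18 ± 2.24 and Hoxa11 at 6.32 ± 1.58 CPM per kb (SD, n = 3), against 1.085 ± 0.194 for Hoxa9 and 0.691 ± 0.261 for Hoxa13. Hoxb7 and Hoxb8 were at 8.68 ± 1.95 and 5.14 ± 1.01 CPM per kb in the controls. The ranges of Hoxa10, Hoxa11, Hoxb7 and Hoxd8 overlapped in the control lesions, so no order among them is given.

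**Figure D1:**
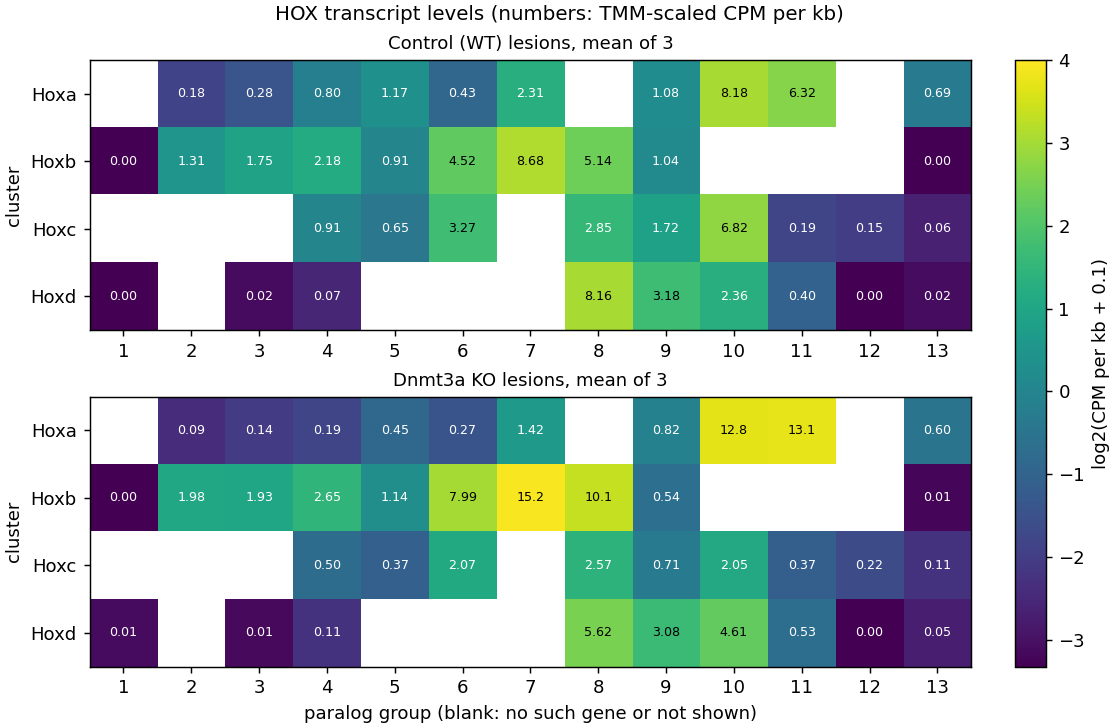
Mean level of HOX genes in the 3 control (top) and 3 KO (bottom) ectopic lesions, by cluster (rows) and paralog group (columns). Numbers are TMM-scaled CPM per kb of exon model, the colour is their log2 after adding 0.1, and blank cells have no gene or are not shown. The highest cells are Hoxa10, Hoxa11, Hoxb6 to Hoxb8, Hoxd8 and, in the controls, Hoxc10, while both ends of Hoxd are near 0.

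The comparison of KO with WT lesions asked how HOX transcripts changed when donor tissue lacked Dnmt3a in cells that express the progesterone receptor. Within Hoxa, the central genes Hoxa4 and Hoxa5 were called lower and the uterine gene Hoxa11 higher in KO lesions, without adjustment for the number of genes. At the threshold of the study (unadjusted p under 0.05 and a log2 fold change beyond 1 in either direction) their log2 fold changes were -2.06, -1.37 and 1.05, with SEs of 0.60, 0.52 and 0.31 (n = 3 lesions a group). Hoxc10, a posterior gene, was also called lower, with a log2 fold change of -1.73 (SE 0.70), although the groups overlapped. Hoxd10 and Hoxb8, the latter a central gene, had an unadjusted p under 0.05 and log2 fold changes just under 1. The other 25 tested HOX genes did not pass. At the study threshold the share of HOX genes called was 9.68% lower and 3.23% higher, near the 5.85% and 3.10% of all tested genes. Every adjusted p of a HOX gene was 0.321 or more (edgeR). With 1 lesion left out, Hoxa5 kept an unadjusted p under 0.05 in 1 of 6 fits and Hoxc10 in 2 of 6.

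In counts, 31 of the 39 genes had enough reads to be tested, namely 11 of Hoxa, 8 of Hoxb, 7 of Hoxc and 5 of Hoxd, and the other 8 (Hoxb1, Hoxb13, Hoxc12, Hoxc13, Hoxd1, Hoxd3, Hoxd12 and Hoxd13) were not tested. At the study threshold 3 of 31 were lower (9.68%) and 1 was higher (3.23%), against 5.85% lower and 3.10% higher of all 18177 tested genes. With an unadjusted p under 0.05 and no limit on size, 3 were lower and 3 higher (9.68% each), against 8.16% and 6.55% of all tested genes. The share of HOX genes called was near that of all genes. With edgeR and adjustment over all tested genes, 0 HOX genes passed an adjusted p of 0.05, beside 6 with an unadjusted p under 0.05, and 0.00550% of all genes (1 gene) passed. Adjusted p-values of the 31 HOX genes ran from 0.321 to 0.951. DESeq2's Wald test gave 1 HOX gene with an adjusted p under 0.05, Hoxa4 (adjusted p = 0.033), where 6.26% of all genes passed, and 7 with an unadjusted p under 0.05 (22.6%), against 20.3% of all genes. Limma voom gave 0 HOX genes with an adjusted p under 0.05 and 14 with an unadjusted p under 0.05 (45.2%), against 30.1% of all genes. Another scaling of the libraries changed the split: with upper quartile scaling 2 HOX genes were lower and 3 higher at the study threshold. Values of tested genes in general also rose with it, to a median of 0.11 from 0.01 with TMM. How many of all tested genes were called with upper quartile scaling was not counted, so the new split has no background share beside it. The methods of the study name 3 donor mice of each genotype for the 3 lesions of each group. They describe 1 fragment from a donor placed in a recipient, but do not state outright that each sequenced lesion had its own donor. The p-values measure the spread between these 6 lesions.

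Promoter sequences of the genes with an unadjusted p under 0.05 are shown because CG dinucleotides are the substrate of DNMT3A. RefSeq windows were at hand for 22 of the 39 HOX genes, including Hoxa11, Hoxd10, Hoxb8 and Hoxa5 but not Hoxa4 and Hoxc10. Each line below gives the 250 bases before the RefSeq start of transcription, 5′ to 3′ on the gene's strand, with CG in capitals. In build GRCm38.p6 they lie at chr6:52245811-52246060 on the minus strand (Hoxa11), chr2:74691641-74691890 on the plus strand (Hoxd10), chr11:96281655-96281904 on the plus strand (Hoxb8) and chr6:52204588-52204837 on the minus strand (Hoxa5).
Hoxa11: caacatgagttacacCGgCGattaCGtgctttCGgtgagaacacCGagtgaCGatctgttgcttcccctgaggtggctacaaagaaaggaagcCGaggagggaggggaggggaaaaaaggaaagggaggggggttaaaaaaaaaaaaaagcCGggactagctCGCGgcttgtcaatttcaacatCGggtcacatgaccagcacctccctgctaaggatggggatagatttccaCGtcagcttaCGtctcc
Hoxd10: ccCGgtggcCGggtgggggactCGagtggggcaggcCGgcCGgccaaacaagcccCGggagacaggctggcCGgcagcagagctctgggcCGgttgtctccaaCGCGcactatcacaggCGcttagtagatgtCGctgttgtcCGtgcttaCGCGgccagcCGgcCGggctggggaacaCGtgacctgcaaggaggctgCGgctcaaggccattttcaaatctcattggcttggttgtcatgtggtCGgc
Hoxb8: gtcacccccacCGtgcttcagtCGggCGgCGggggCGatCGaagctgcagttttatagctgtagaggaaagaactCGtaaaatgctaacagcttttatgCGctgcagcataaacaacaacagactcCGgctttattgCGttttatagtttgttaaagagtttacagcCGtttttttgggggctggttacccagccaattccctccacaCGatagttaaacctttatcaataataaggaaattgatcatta
Hoxa5: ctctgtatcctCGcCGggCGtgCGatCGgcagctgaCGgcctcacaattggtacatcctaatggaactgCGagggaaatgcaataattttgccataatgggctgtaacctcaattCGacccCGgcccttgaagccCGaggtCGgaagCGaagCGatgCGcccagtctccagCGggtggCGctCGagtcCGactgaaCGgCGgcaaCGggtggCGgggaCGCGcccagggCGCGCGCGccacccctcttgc
These windows held 13 CG (Hoxa11), 20 (Hoxd10), 12 (Hoxb8) and 28 (Hoxa5). The median was 12.5 over the 24 windows of HOX genes, with a range of 2 to 35, and 6 over all 32851 windows of the same length. At least as many CG were found in 31.5% of all windows for Hoxa11, 18.0% for Hoxd10, 33.5% for Hoxb8 and 7.61% for Hoxa5. Of all windows, 92.1% held a CG. The PBX-HOX motif TGATTNAT, on either strand, occurred in none of these 4 windows, in 2 of the 24 HOX windows (Hoxa2 and Hoxd11) and in 2.83% of all windows. The MEIS motif TGACAG, on either strand, occurred in none of the 4, in 2 of the 24 (Hoxa2 and Hoxa3) and in 15.9% of all windows. All 4 windows, of 3 genes that were higher and 1 that was lower in KO lesions, held more CG than the median of all windows (6). So did the median HOX window (12.5), and Hoxb8 with 12 CG was below that HOX median. A high CG number is therefore not particular to these 4 genes.

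Hoxa11, which patterns the uterus and its stroma, was at 12.3, 12.5 and 18.6 CPM in control lesions 1, 2 and 3 and at 39.6, 19.5 and 30.8 CPM in KO lesions 1, 2 and 3. Every KO lesion was above every control, although KO lesion 2 was only just above control lesion 3. Its log2 fold change was 1.05 (SE 0.31, 95% CI 0.29 to 1.82, unadjusted p = 0.015, adjusted p = 0.321, edgeR). Leaving out 1 lesion at a time gave 0.81 to 1.29, and the unadjusted p stayed under 0.05 in 5 of 6 such fits, the exception being the fit without control lesion 1. The antisense gene Hoxa11os overlaps 35.0% of the exon model of Hoxa11. It was at 0.726 to 1.31 CPM in the controls and 1.19 to 2.23 CPM in KO lesions, for a log2 fold change of 0.73 (unadjusted p = 0.099, edgeR). Whether counting used the strand is not given in the sources used here. If it did not, reads of Hoxa11 and Hoxa11os cannot be told apart where they overlap.

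Hoxa10, which encodes a factor that governs the response of the endometrium to progesterone, was at 25.7, 20.0 and 34.5 CPM in the controls and at 52.8, 28.8 and 43.6 CPM in KO lesions. KO lesion 2 lay below control lesion 3, so the groups overlapped. Its log2 fold change was 0.64 (95% CI -0.09 to 1.37, unadjusted p = 0.074, edgeR). Hoxa9 was at 7.09, 4.93 and 6.15 CPM in the controls and 4.46, 3.85 and 5.44 CPM in KO lesions. Its log2 fold change was -0.40 (95% CI -0.998 to 0.19, unadjusted p = 0.150, edgeR). Hoxa13 was at 1.20, 2.43 and 1.495 CPM in the controls and 1.02, 0.358 and 3.08 CPM in KO lesions, and the KO lesions spread beyond the controls in both directions, with a log2 fold change of -0.20 (95% CI -2.10 to 1.70, edgeR).

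Hoxa4, a central gene, was at 1.60, 0.720 and 1.495 CPM in the controls and at 0.210, 0.159 and 0.542 CPM in KO lesions, from 8 to 75 counts per library. All KO lesions were below all controls. Its log2 fold change was -2.06 (SE 0.60, 95% CI -3.53 to -0.60, unadjusted p = 0.014, adjusted p = 0.321, edgeR), the largest decrease among tested HOX genes. Leaving out 1 lesion at a time gave -2.76 (without KO lesion 3) to -1.76. The call ended without KO lesion 1 (-1.85, unadjusted p = 0.055, edgeR). Hoxa5, its neighbour, was at 1.99, 2.57 and 2.05 CPM in the controls and 0.351, 0.834 and 1.38 CPM in KO lesions. Again the groups did not overlap. The log2 fold change of Hoxa5 was -1.37 (SE 0.52, unadjusted p = 0.038, adjusted p = 0.332, edgeR), and its unadjusted p stayed under 0.05 in 1 of 6 fits without a lesion, that without KO lesion 3. Hoxa2, at 0.040 to 0.383 CPM, was the other HOX gene with every KO lesion below every control, with an unadjusted p of 0.173. In all, 3 of 31 tested HOX genes (9.68%) had every KO value below every control value, against 8.74% of all tested genes, and 2 of 31 (6.45%; Hoxa11 and Hoxd10) had every KO value above, against 10.7%.

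Along Hoxa the sign of the difference changed with position, with exceptions at the posterior end. KO against WT, the log2 fold change was below 0 for all 6 genes from Hoxa2 to Hoxa7, with values of -0.67 to -2.06, was -0.40 at Hoxa9, was above 0 at Hoxa10 and Hoxa11, and was -0.20 at Hoxa13. Of those 6 genes, 2 passed an unadjusted p of 0.05. The median log2 fold change was -1.04 over the 4 central Hoxa genes and 0.22 over the 4 posterior ones, beside 0.01 over all tested genes. This pattern was seen in the values first and has no test.

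**Figure D2:**
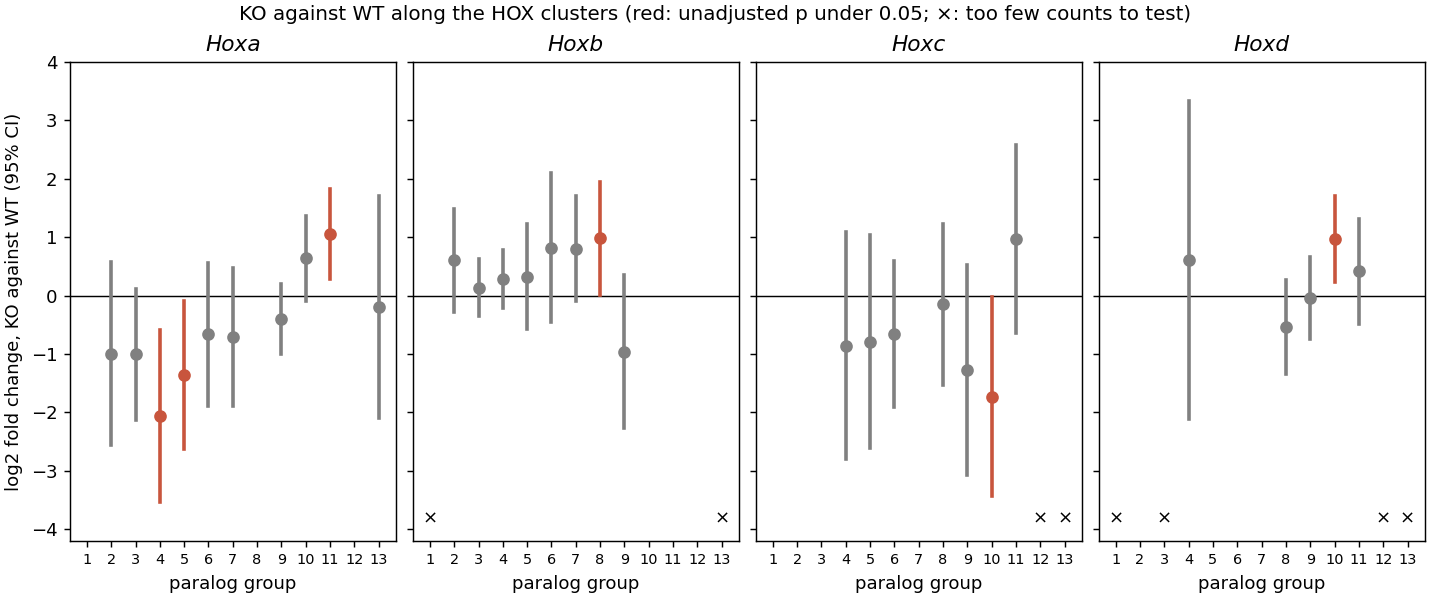
Log2 fold change of KO against WT for tested HOX genes, with the 95% CI (edgeR, n = 3 lesions a group), in the order of paralog groups within each cluster. Red marks an unadjusted p under 0.05 and a cross a gene with too few counts to test. Along Hoxa the points run from below 0 at Hoxa2 to Hoxa9 to above 0 at Hoxa10 and Hoxa11 and back below 0 at Hoxa13, and most intervals include 0.

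Ratios between genes within a lesion do not depend on how the libraries were scaled. Hoxa10 and Hoxa11 together made up 61.3, 62.0 and 75.4% of the summed Hoxa level (CPM per kb) in the controls and 92.6, 84.3 and 80.8% in KO lesions. The genes Hoxa2 to Hoxa7 made up 29.5, 26.3 and 17.2% in the controls and 3.86, 11.3 and 11.9% in KO lesions. The ratio of Hoxa11 to Hoxa9, per kb, was 4.22, 6.17 and 7.39 in the controls and 21.7, 12.4 and 13.8 in KO lesions. None of these values overlapped between the genotypes. The ratio of Hoxa11 to Hoxa10 was 0.681, 0.892 and 0.772 in the controls and 1.07, 0.968 and 1.01 in KO lesions. The ratio of Hoxd10 to Hoxd9 was 0.509, 0.976 and 0.838 in the controls and 1.66, 1.33 and 1.45 in KO lesions. These ratios were chosen after the values were seen and have no test. A ratio shows unequal change, not which of its genes moved.

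**Figure D3:**
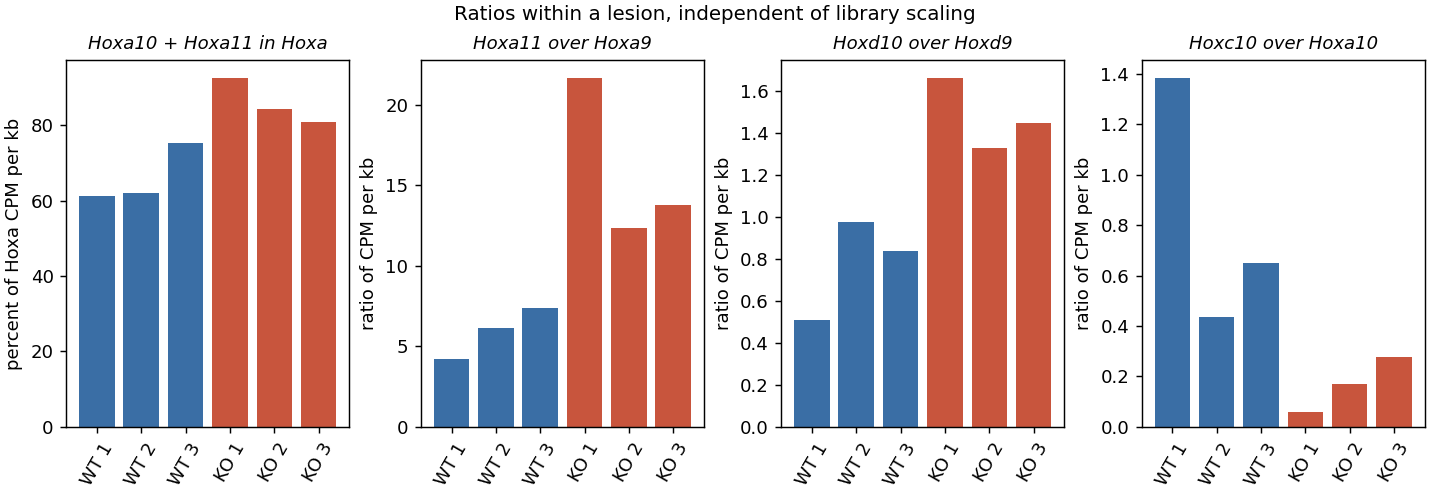
The share of Hoxa10 and Hoxa11 in the summed Hoxa level, in percent, and 3 ratios of HOX genes, all from CPM per kb, with 1 bar per lesion (blue WT, red KO). The KO bars lie above the control bars in the first 3 panels and below them in the panel of Hoxc10 over Hoxa10.

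Hoxd10, a paralog of Hoxa10, was at 3.44, 3.74 and 5.66 CPM in the controls and at 10.4, 6.24 and 8.46 CPM in KO lesions. Every KO lesion was above every control. Its log2 fold change was 0.97 (SE 0.30, 95% CI 0.23 to 1.71, unadjusted p = 0.019, adjusted p = 0.328, edgeR). Its unadjusted p stayed under 0.05 in 3 of 6 fits that left out a lesion, and was lost without control lesion 1, control lesion 2 or KO lesion 1. Hoxd11, next to Hoxd10 on one side, had a log2 fold change of the same sign, 0.42 (95% CI -0.48 to 1.32, edgeR), and its groups overlapped. Hoxd10 and Hoxd11 share 5.73 and 10.8% of their exon models with Gm28309 on the same strand. Hoxd9 and Hoxd8, on the other side, gave no such difference. Hoxd9 was at 7.94, 4.50 and 7.95 CPM in the controls and 7.37, 5.52 and 6.88 CPM in KO lesions, which gave a log2 fold change of -0.04 (95% CI -0.74 to 0.65, edgeR; 0.0479 with upper quartile scaling). Hoxd8 was at 30.3, 12.5 and 24.3 CPM in the controls and 14.2, 14.8 and 17.3 CPM in KO lesions. Control lesion 2 was the lowest for Hoxd8, and the log2 fold change was -0.54 (95% CI -1.34 to 0.27, unadjusted p = 0.153, edgeR). The sum over all Hoxd genes was 9.21 to 17.2 CPM per kb in the controls and 11.96 to 15.1 in KO lesions.

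Some transcripts of smooth muscle and of uterine stroma were also higher in KO lesions, beside Hoxa11 and Hoxd10. Of 7 smooth muscle genes, 5 were higher with an unadjusted p under 0.05 (edgeR), and for those 5 every KO lesion was above every control. Of all tested genes, 6.55% were higher and 8.16% lower at that p, and 10.7% had every KO lesion above every control. Actg2, the gamma actin of smooth muscle, was at 109, 62.3 and 107 CPM in the controls and 318, 169 and 231 CPM in KO lesions. Among KO lesions, lesion 1 was highest and lesion 2 lowest, as for Hoxa11, Hoxa10 and Hoxd10 but not for the stroma genes Hand2, Foxl2 and Esr1. The share of all genes with that order was not counted. Des and Synpo2, the other 2 genes of the list, were highest in control lesion 1. The summed level of the list was 507 to 3559 CPM in the controls and 1115 to 1806 CPM in KO lesions. Of 7 endometrial stroma genes, 3 were higher (Hand2, Foxl2 and Esr1), the other 4 did not pass, and their sum was 2713 to 3183 CPM in the controls and 2070 to 3338 CPM in KO lesions. Of the leukocyte lists, 6 of 7 T cell, 4 of 5 B cell, 3 of 6 neutrophil and 0 of 6 macrophage genes were lower with an unadjusted p under 0.05 (edgeR). The B cell sum was 77.3 CPM in control lesion 2, 14.9 and 9.21 CPM in control lesions 1 and 3, and 7.27 to 9.81 CPM in KO lesions. In bulk lesions, fewer cells of a type and less RNA per cell cannot be told apart. The part of these tissues in the HOX values was not tested.

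Hoxc10, which is posterior like Hoxa10 and Hoxd10 and was the highest Hoxc gene in the controls per kb, differed from them in sign. It was at 20.8, 5.09 and 13.1 CPM in the controls and at 1.79, 2.88 and 7.09 CPM in KO lesions. Control lesion 2 lay below KO lesion 3, so the groups overlapped. Hoxc10 had a log2 fold change of -1.73 (SE 0.70, 95% CI -3.44 to -0.02, unadjusted p = 0.048, adjusted p = 0.336, edgeR). Leaving out 1 lesion at a time gave -2.48 (without KO lesion 3) to -1.22 (without control lesion 1). The call held only without control lesion 2 or without KO lesion 3 among those 6 fits. With upper quartile scaling the log2 fold change of Hoxc10 was -1.64 and its unadjusted p 0.056. Its highest values were in control lesions 1 and 3, the libraries with skeletal muscle transcripts. Leaving out those 2 libraries therefore shrinks the decrease of Hoxc10 whatever its cause, and the part of muscle tissue was not tested. Without them control lesion 2 stands alone and is assumed to vary like the KO lesions. The log2 fold change of Hoxc10 in that fit was -0.38 (edgeR). In that fit the values of Hoxa4, Hoxa5, Hoxa11 and Hoxd10 were -1.25, -1.60, 1.24 and 1.14. The ratio of Hoxc10 to Hoxa10, per kb, was 1.39, 0.436 and 0.652 in the controls and 0.0580, 0.171 and 0.278 in KO lesions. Hoxc10 shares 8.70% of its exon model with Hoxc5 on the same strand.

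KO lesion 1 had little of the Hoxc cluster. It was the lowest of the 6 lesions for 6 of the 7 tested Hoxc genes, whereas 15.8% of all tested genes had their lowest value there. Hoxc8 was at 8.63, 8.33 and 7.24 CPM in the controls and at 2.14, 8.42 and 11.3 CPM in KO lesions, so that KO lesion 1 alone was low. Its log2 fold change was -0.15 (95% CI -1.53 to 1.23, edgeR), and it was 0.29 without KO lesion 1. The summed Hoxc level was 24.03, 10.1 and 15.7 CPM per kb in the controls and 3.51, 9.42 and 14.02 in KO lesions. The other tested Hoxc genes (Hoxc4, Hoxc5, Hoxc6, Hoxc9 and Hoxc11) had unadjusted p-values of 0.133 to 0.330. In KO lesion 1 the 5 mesothelial genes summed to 27.5 CPM, against 142 and 255 CPM in the other KO lesions and 45.2 to 286 CPM in the controls, and the 6 adipocyte genes were at their lowest there (663 CPM). The part of these cells in the low Hoxc values was not tested.

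In Hoxb, KO lesion 3 stood apart from the other KO lesions. Hoxb8 was at 10.5, 14.4 and 15.7 CPM in the controls and at 34.6, 32.5 and 12.98 CPM in KO lesions. KO lesions 1 and 2 were above every control, and KO lesion 3 lay within the control range. The log2 fold change of Hoxb8 was 0.98 (SE 0.40, 95% CI 0.01 to 1.95, unadjusted p = 0.048, adjusted p = 0.337, edgeR), and among the fits without a lesion only that without KO lesion 3 kept an unadjusted p under 0.05. Hoxb7 was at 12.7, 10.8 and 16.7 CPM in the controls and 29.8, 27.9 and 12.5 CPM in KO lesions, and its log2 fold change was 0.80 (95% CI -0.09 to 1.70, unadjusted p = 0.070, edgeR). Hoxb6 was at 6.88, 7.496 and 12.2 CPM in the controls and 19.6, 21.7 and 5.81 CPM in KO lesions, for a log2 fold change of 0.82 (95% CI -0.45 to 2.10, unadjusted p = 0.166, edgeR). All 7 tested genes from Hoxb2 to Hoxb8 were highest in KO lesions 1 and 2, whereas 21.9% of all tested genes had this order. Hoxb9, the eighth, had a log2 fold change of -0.96 (unadjusted p = 0.124). The summed Hoxb level was 21.7, 24.6 and 30.3 CPM per kb in the controls and 51.3, 50.8 and 22.5 in KO lesions.

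**Figure D4:**
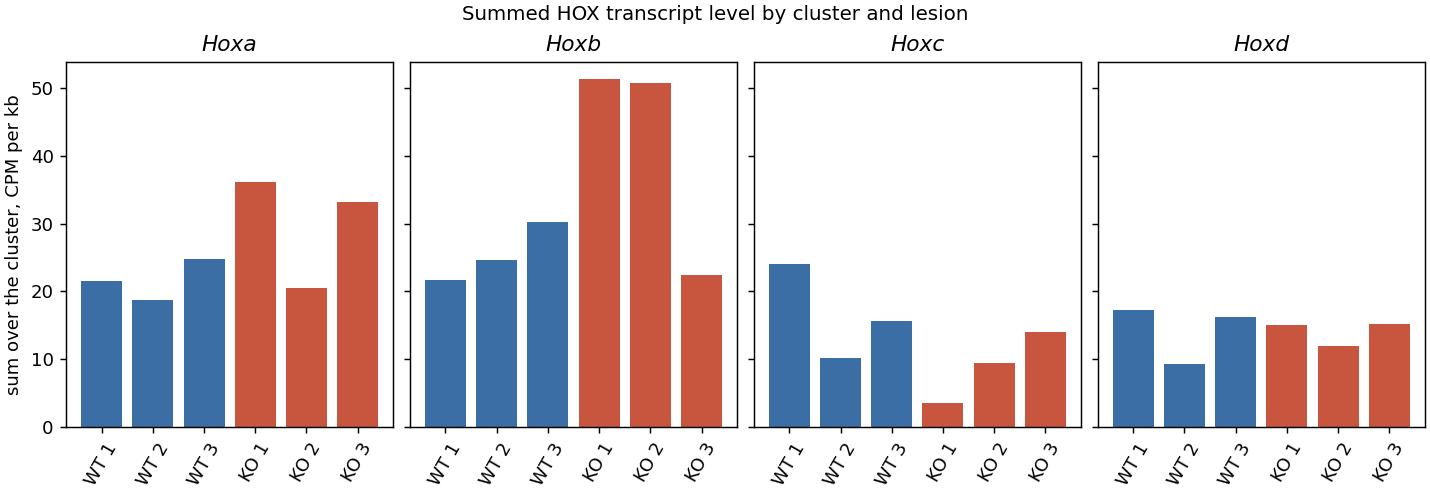
Summed level of each HOX cluster in each lesion, in CPM per kb, with 1 bar per lesion (blue WT, red KO). Hoxb is at about 51 in KO lesions 1 and 2 and at 21.7 to 30.3 elsewhere, Hoxc is lowest in KO lesion 1 (3.51), and Hoxd lies at 9.21 to 17.2.

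Of 9 endometrial epithelial genes, 6 were also highest in KO lesions 1 and 2. The epithelial adhesion gene Cdh1 was at 495, 345 and 643 CPM in the controls and at 877, 829 and 436 CPM in KO lesions, and Pax8, a factor of Müllerian epithelium, was at 34.3, 14.9 and 26.2 CPM in the controls and 71.8, 72.5 and 24.1 CPM in KO lesions. None of the 9 had an unadjusted p under 0.05. The adipocyte sum was largest in KO lesion 3. Of the 7 stroma genes, 4 were also highest in KO lesions 1 and 2. The part of cell makeup in the Hoxb values was not tested.

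**Figure D5:**
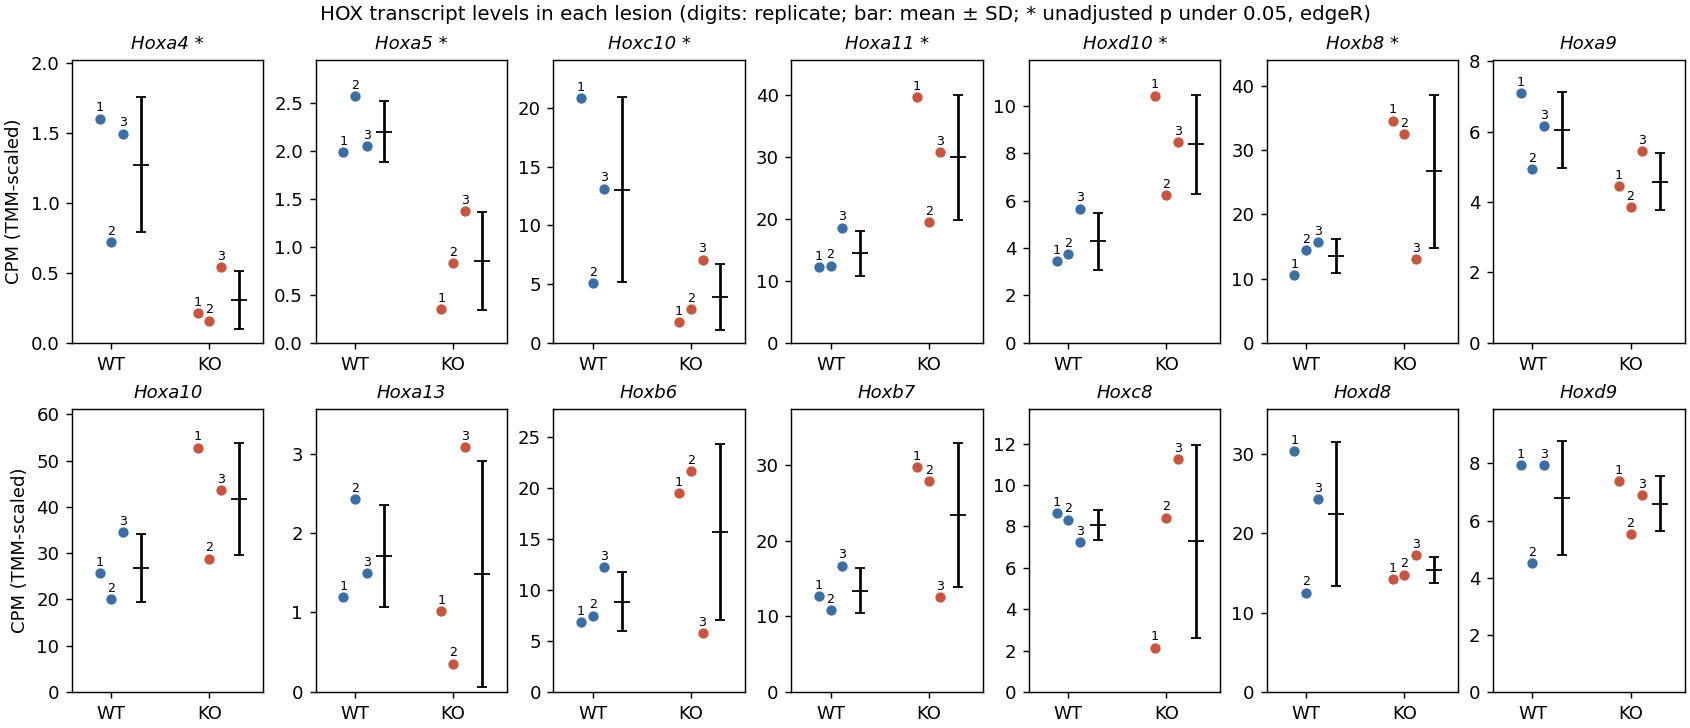
TMM-scaled CPM of 14 HOX genes in each control (blue) and KO (red) ectopic lesion, with the replicate number beside each point and the mean ± SD of 3 lesions as a bar. A star marks an unadjusted p under 0.05 (edgeR). Hoxa11 and Hoxd10 are separated upwards and Hoxa4 and Hoxa5 downwards, whereas for Hoxb6, Hoxb7 and Hoxb8 KO lesion 3 lies within or below the range of the controls.

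Over all 31 tested HOX genes the log2 fold change was above 0 for 13 and below 0 for 18, with a median of -0.20 beside 0.01 for all tested genes. Cluster medians were -0.71 for Hoxa (2 of 11 above 0), 0.46 for Hoxb (7 of 8), -0.79 for Hoxc (1 of 7) and 0.42 for Hoxd (3 of 5). Scaling by upper quartiles changed 1 of the 31 signs, at Hoxd9, and scaling by the size factors of DESeq2 changed 0. Upper quartile scaling moved the median of all genes from 0.01 to 0.11, so only values just below 0 could change sign. The paralog groups were mixed as well. All 4 genes of group 9 were below 0 without an unadjusted p under 0.05, and all 3 genes of group 11 were above 0. In group 10, Hoxa10 and Hoxd10 were above 0 and Hoxc10 below. Low genes were imprecise: Hoxd4, at 0 to 30 counts, had a log2 fold change of 0.61 with a 95% CI of -2.11 to 3.34, and its exon model shares 52.3% with genes on the same strand, Hoxd3 among them.

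HOX proteins bind DNA with TALE homeodomain cofactors of the PBX, MEIS and PREP (Pknox) families. Of 9 cofactor genes, 8 were tested, 1 was higher with an unadjusted p under 0.05 and 0 were lower. That is near the share of all tested genes, of which 6.55% were higher and 8.16% lower (edgeR). Every KO lesion was above every control for 10.7% of all tested genes. Meis2 was at 34.3, 27.5 and 36.0 CPM in the controls and 40.1, 49.1 and 42.7 CPM in KO lesions, which gave a log2 fold change of 0.43 (unadjusted p = 0.034, adjusted p = 0.331, edgeR). The groups did not overlap for Meis2.

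HOX clusters are held silent by Polycomb complexes and kept active by Trithorax proteins. Of 22 such chromatin regulators, all tested, 2 were higher with an unadjusted p under 0.05 and 0 were lower, with a median log2 fold change of 0.03. The share called higher was near the 6.55% of all tested genes, and 8.16% of all tested genes were lower (edgeR). Ezh1, a histone H3K27 methyltransferase, was at 50.8, 49.8 and 54.3 CPM in the controls and 74.6, 73.2 and 57.9 CPM in KO lesions (log2 fold change 0.41, unadjusted p = 0.025, adjusted p = 0.328, edgeR). Pcgf2, a subunit of the PRC1 complex, was at 11.3, 11.5 and 10.4 CPM in the controls and 15.2, 16.2 and 13.5 CPM in KO lesions (log2 fold change 0.44, unadjusted p = 0.024, adjusted p = 0.328, edgeR). Phc2, another PRC1 subunit and the regulator with the highest counts, was at 72.6 to 86.2 CPM in all lesions, and its log2 fold change was 0.02 (unadjusted p = 0.890).

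Of 18 noncoding genes of the clusters, 16 were in the table by symbol, 4 were tested, and 11 of the 16 had 0 counts in at least 1 lesion. The transcripts Hotair and Hottip were at 0.085 and 0.125 CPM or less. Hoxb5os was at 0.214, 0.2701 and 0.214 CPM in the controls and 0.526, 0.874 and 0.458 CPM in KO lesions, and its log2 fold change was 1.41 (SE 0.39, unadjusted p = 0.012, adjusted p = 0.321, edgeR). It overlaps 3.59% of the exon model of Hoxb5, which had a log2 fold change of 0.32 (unadjusted p = 0.416). Hoxd3os1, the highest of this list, was at 1.58 to 2.75 CPM in all lesions. Of the 10 genes that flank the clusters, among them the homeobox genes Evx1 and Evx2, 9 were tested and none had an unadjusted p under 0.05 (edgeR; 0 with an adjusted p under 0.05). Cbx5, the flanking gene with the highest counts, had a log2 fold change of 0.48 (unadjusted p = 0.061).

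Of 13 genes that act with or below HOX factors in the uterus, 12 were tested, 3 were higher, 2 were lower and 7 did not pass an unadjusted p of 0.05. Of all tested genes, 6.55% were higher and 8.16% lower at that p (edgeR). Wnt5a, a stromal WNT ligand, was the largest increase, with 127, 78.2 and 158 CPM in the controls and 406, 377 and 189 CPM in KO lesions (log2 fold change 1.42, unadjusted p = 0.010, edgeR). Hand2, a stromal factor induced by progesterone, was at 2.05, 2.79 and 2.69 CPM in the controls and 5.96, 5.13 and 4.21 CPM in KO lesions (log2 fold change 1.02, unadjusted p = 0.0073). Esr1, the estrogen receptor alpha gene, was at 191, 93.2 and 200 CPM in the controls and 387, 445 and 226 CPM in KO lesions (log2 fold change 1.13, unadjusted p = 0.026). Lif, a cytokine needed for implantation, was lower, at 35.9, 43.0 and 47.8 CPM in the controls and 23.1, 12.5 and 25.5 CPM in KO lesions (log2 fold change -1.05, unadjusted p = 0.012), and so was Bmp2, a ligand of decidualization (log2 fold change -0.61, unadjusted p = 0.043). Emx2, a gene repressed by Hoxa10, was at 61.3, 31.2 and 55.2 CPM in the controls and 108, 100 and 52.6 CPM in KO lesions (log2 fold change 0.82, unadjusted p = 0.065), again with KO lesion 3 beside the controls. Igfbp1 had 0 counts in every lesion. Adjusted p-values of this list were 0.321 or more. Hand2, Esr1 and Pgr are also in the stroma list and Wnt7a in the epithelial list, so their values are not separate observations.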

How the data were processed

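Poly(A)-selected stranded libraries (TruSeq Stranded mRNA) were made from bulk lesions. The authors trimmed reads, mapped them to the mouse genome and deposited raw counts per gene. The submitters' processing notes name Trimmomatic, featureCounts, DESeq2 and build GRCm39, whereas the methods of the study name GRCm38. The counting setting for strand is not given in the sources used here. Per the deposited values, 76.5 to 79.4% of counts between 10 and 999 were even in every library, so paired mates may have been counted separately, and counting intervals may then be too narrow.

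The deposited counts were tested with edgeR 4.0.16 (filterByExpr, TMM, quasi-likelihood F test, genotype as the only term), with Benjamini-Hochberg adjustment over all 18177 tested genes. The SE is the log2 fold change divided by the root of F. Alternatives used DESeq2 1.42.0 and limma 3.58.1 in R 4.3.3. The test was also run on simulated data, and the outcome is not given here. Symbols (51948 of 56884 identifiers) and exon-model lengths came from GENCODE M21 by identifier without version. Counts without a symbol made up 3.04 to 3.56% of a library and stayed in the fit. Promoters came from RefSeq. Replicate numbers did not pair the lesions (correlations of same-numbered deviations 0.03, -0.15 and -0.20). The genes named with values are those with an unadjusted p under 0.05, the 10 highest per kb, and Hoxa9, Hoxa10, Hoxa11 and Hoxa13, and in other lists those with an unadjusted p under 0.05 and the highest. Others were named after their values were seen. The values of some genes are not reported here, although they entered the counts and sums. Membership follows gene symbols, but the members, as a family to describe, and the lists were chosen with earlier results of these data known.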

Additional observations from a re-analysis of the deposited data

How the results depend on the processing

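Alternatives were run on the counts of HOX genes, their median and the log2 fold changes of 14 named genes. The 25 genes at 1 CPM or more stayed 25 under both other scalings and with any lesion left out, and were 24 without control lesions 1 and 3. Limma voom with quality weights gave 7 lower, 14 with an unadjusted p under 0.05 (30.1% of all genes had one) and a median log2 fold change of -0.79. It gave 5478 of all genes an unadjusted p under 0.05, against 2674 with edgeR. The share of all genes at the study threshold was counted for the main fit only. DESeq2's Wald test gave 1 gene with an adjusted p under 0.05. Upper quartile scaling, which moved the median of all genes from 0.01 to 0.11, gave 3 higher genes and turned Hoxd9 to 0.0479. The median was -0.0453 with no filter beyond 1 count. Replicate numbers are not pairs here, and the replicate block gave 2 lower, 1 higher, 5 with an unadjusted p under 0.05 and a median of -0.42.

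With 1 lesion left out at a time, the lower genes numbered 0 (without KO lesion 1) to 5 (without KO lesion 3), the higher genes 0 to 4 (without KO lesion 3), those with an unadjusted p under 0.05 numbered 1 to 11, and the median ran from -0.61 (without KO lesion 3) to 0.0212 (without KO lesion 1). The shares of all tested genes called in these fits were not counted, so a change in HOX genes cannot be told from one in all genes. Hoxa13 ran from -1.30 to 0.27, Hoxc8 from -0.61 to 0.29 and Hoxd9 from -0.27 to 0.0814.

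Leaving out control lesions 1 and 3 together, and halving the counts, were chosen after seeing the data. Without both controls, the median was -0.0279, Hoxd8 turned to 0.28 and Hoxd9 to 0.53, and Dnmt3a was at -0.42. Control lesion 2 alone was then assumed to vary like the KO lesions. Halved counts kept the calls of the same 6 genes. The cause of these changes was not tested. Over the 14 named genes and all alternatives, 161 values kept their sign and side of the threshold, 28 lost and 10 gained an unadjusted p under 0.05, and 10 changed sign. Only the 6 genes called in the main fit could lose a call, so all 28 losses were theirs. Depth limits the low genes, such as Hoxa4 with 8 to 75 counts a library, and 8 of the 39 HOX genes had too few counts to test.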
